A study of Danio rerio with 2 samples.

Results

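The 10 genes described here are markers of microglia and macrophages that do not encode lysosomal enzymes: mpeg1.1, csf1ra, csf1rb, lcp1, coro1a, spi1b, c1qa, c1qb, p2ry12 and cd74a. They were picked by name, with earlier results of these data known, from the 34326 genes of the authors' comparison of rraga mutant with wild-type cells, and all 10 were found. The cells came from zebrafish larvae of the TL (Tupfel long fin) strain at 5 days post fertilization and were sorted by flow cytometry for GFP driven by Cldnk, a claudin gene of myelinating glia. The cells were either wild type or mutant for rraga, and the labels name neither the mutant allele nor how many larvae were pooled. For each genotype there was 1 record, which per the labels joins 2 independent biological replicates. The rraga product is RagA, a small GTPase of the lysosome surface through which amino acids reach the mTORC1 kinase. rraga itself had a level of 33.1 and a log2 fold of 0.44 per the authors' deposited table (p = 0.477), so its RNA was not called lower in the cells labelled mutant and gives no check of the genotypes.

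Microglia are the resident macrophages of the brain. They depend on the transcription factor PU.1 and on the receptor for colony stimulating factor 1, and they engulf dying neurons, synapses and surplus myelin, which they degrade in abundant lysosomes. In zebrafish, RagA is itself known to be needed for normal microglial lysosomes. Sorted glial preparations can carry such cells or their free RNA, so the question put to these genes was how much macrophage RNA lay beside the lysosomal genes whose values were higher in the mutant.

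None of the markers passed the threshold for a change, and most of them, like most genes of the comparison, had a level under 1. Of the 10 genes, 9 had a fold and a p-value per the authors' deposited table, 4 with a higher and 5 with a lower value in the mutant, and 0 had an FDR adjusted p under 0.05. Over the whole comparison, 57 of 25757 genes, or 0.221%, passed that threshold, so a count of 0 among 9 is near this background. The lowest level of a gene that passed was 3.40. Of the markers only coro1a, lcp1 and spi1b lay above that level, so the count says little about the others. At an unadjusted p under 0.05 there was 1 marker, cd74a, with a lower value in the mutant, where 9.66% of all genes lay under that p and 5.24% did so with a lower value. The median log2 fold of the 9 markers was -0.22, against 0.02 for all genes with a p, and their mean was -1.71. The markers of level 1 or more, which were 4, had a median of 0.30, and the 2 of level 10 or more had one of -0.072, so the sign of the median depended on which markers were kept.

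Expression is given here as a level, which is whichever genotype mean was the larger, normalized by the authors in an unnamed unit. The table holds no value per replicate, and of the genotype means it gives only the larger, without a label of its genotype. It thus cannot be seen whether the groups overlap, and the sequencing depth is unknown. Whether the level is scaled to transcript length is not given either, so the order of levels between genes describes the table and not the number of transcripts. Of the 10 markers, 6 had a level under 1 and 2 had a level of 10 or more. Of all 34326 genes, 19127 had a level under 1 and 5792 had one of 10 or more. The median level was 0.696 for the markers and 0.603 for all genes, so low levels were not particular to the markers. Summed, the levels of the markers came to 42.7, or 0.00678% of the summed level of all genes. Each level is the larger genotype mean of its gene, so this and the later sums mix the genotypes and belong to neither. The errors quoted below were derived from each deposited fold and p on the assumption of a normal test, and it is not known whether they carry the spread between replicates.

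**Figure D1:**
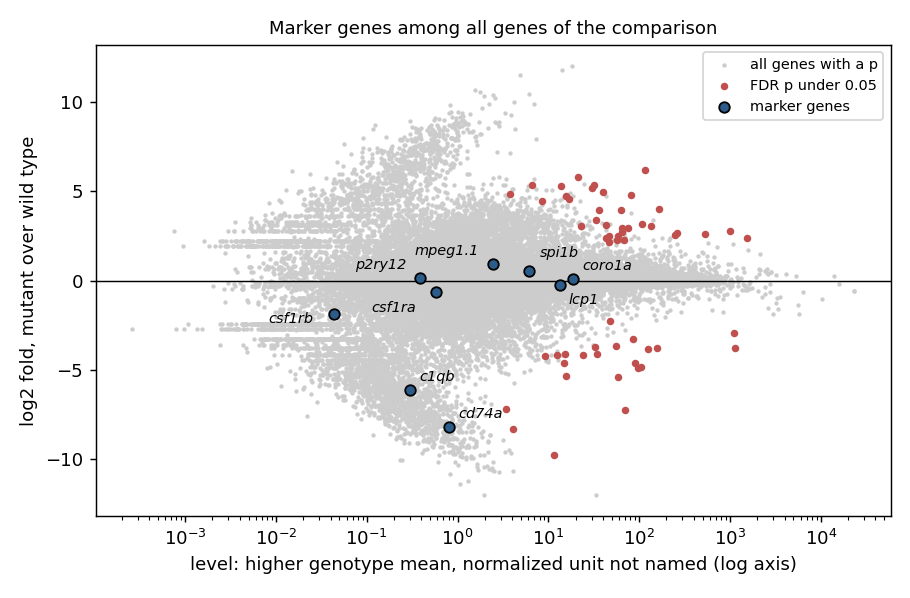
Log2 fold of rraga mutant over wild type (y axis) against level on a log axis (x axis) for the 25757 genes with a p (grey), the 57 genes with an FDR p under 0.05 (red) and the 9 markers with a p (blue). cd74a and c1qb lie on the lower wing of large folds at low levels, and the other markers lie within the central cloud.

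The highest levels belonged to coro1a and lcp1, which encode coronin 1A and L-plastin, actin-binding proteins shared by all white blood cells. coro1a (ENSDARG00000054610, chromosome 3, 30795522 to 30810520, minus strand, GRCz11) had a level of 18.7 and a log2 fold of 0.08 per the authors' deposited table, with p = 0.908. lcp1 (ENSDARG00000023188, chromosome 9, 56663226 to 56705090, minus strand) had a level of 13.3 and a log2 fold of -0.22 there, with p = 0.718 per the authors' deposited table. Both folds were close to 0 and smaller than their implied standard errors of 0.69 and 0.62. The 95% interval implied for coro1a ran from -1.27 to 1.43, and that for lcp1 from -1.44 to 0.99. With such errors coro1a would have needed a log2 fold of 2.72, and lcp1 one of 2.44, to pass the threshold. In a bulk sample fewer cells of a type and less RNA per cell cannot be told apart.

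spi1b encodes PU.1, the transcription factor that sets the myeloid fate, and mpeg1.1 encodes perforin-2, whose promoter is the standard label of zebrafish macrophages. spi1b (ENSDARG00000000767, chromosome 7, 32373523 to 32388203, minus strand) had a level of 6.09 and a log2 fold of 0.52 per the authors' deposited table (p = 0.600), with an implied interval from -1.41 to 2.44. mpeg1.1 (ENSDARG00000055290, chromosome 8, 29700878 to 29704389, minus strand) had a level of 2.49, and its log2 fold was 0.90 per the authors' deposited table (p = 0.509), with an implied interval from -1.77 to 3.57. Both values were higher in the mutant, by less than their implied standard errors of 0.98 and 1.36. Each also has a copy in the genome. spi1a, at a level of 4.36, had a log2 fold of -0.64, and mpeg1.2 had 4.21 at a level of 1.53 with an unadjusted p of 0.0197, both per the authors' deposited table. mpeg1.3, which lies 51.9 kb from mpeg1.1, was at a level of 0.00559 per the authors' deposited table. How reads were divided among the mpeg1 copies is not given, so their separate folds are uncertain.

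The receptor for colony stimulating factor 1, on which macrophages depend for survival, is encoded in zebrafish by csf1ra and csf1rb. csf1ra, known also from pigment cells of the xanthophore lineage (ENSDARG00000102986, chromosome 14, 3170816 to 3202049, minus strand), had a level of 0.581 and a log2 fold of -0.64 per the authors' deposited table, its p being 0.696, and an implied interval from -3.87 to 2.58. csf1rb (ENSDARG00000053624, chromosome 21, 43846478 to 43885949, plus strand) had a level of 0.0432, a log2 fold of -1.86 and p = 0.202 per the authors' deposited table. Its implied interval ran from -4.71 to 0.99. Only 6.77% of genes with a p had a lower level than csf1rb, and 32.7% had a lower level than csf1ra. The values of both receptor genes were lower in the mutant, and each interval holds 0.

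p2ry12 encodes the purinergic receptor that distinguishes microglia from other macrophages. p2ry12 (ENSDARG00000069945, chromosome 15, 1155861 to 1159644, plus strand) had a level of 0.389 and a log2 fold of 0.16 per the authors' deposited table, with p = 0.940. Its implied interval from -4.00 to 4.32 holds large changes in either direction. With that error p2ry12 would have needed a log2 fold of 8.38 to be called.

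c1qa and c1qb encode chains of C1q, the first component of the classical complement pathway, which microglia secrete and which tags synapses for removal. They lie with c1qc in a row on chromosome 21. c1qa (ENSDARG00000044613, 22685352 to 22688375, minus strand) was listed at 0, so neither a fold nor a p was deposited for it. c1qb (ENSDARG00000044612, 22675702 to 22678692, minus strand) had a level of 0.299 and a log2 fold of -6.15 per the authors' deposited table, its p being 0.0631 and its adjusted p 0.700. Its implied standard error was 3.31, and the interval from -12.6 to 0.34 holds 0. Exactly that log2 fold, to within 1e-06, was shared by 27 other genes. c1qc, whose product completes the C1q molecule, had a level of 2.11 and a log2 fold of -1.58 per the authors' deposited table (p = 0.387).

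cd74a encodes an invariant chain of MHC class II, which guides antigen-presenting molecules through the endosomes. It had the largest fold of the markers. cd74a (ENSDARG00000009087, chromosome 14, 2787356 to 2801244, plus strand) had a level of 0.811 and a log2 fold of -8.18 per the authors' deposited table, its p being 0.0156 and its adjusted p 0.594. Its implied interval was wide, from -14.8 to -1.55, and a log2 fold of 13.4 would have been needed for a call. The table does not say whether any read of cd74a was seen in the mutant, so the size of its fold is uncertain. Its copy cd74b, at a level of 0.616, had a log2 fold of 3.32 per the authors' deposited table (p = 0.0770), so the copies had values on opposite sides of 0 and neither passed the threshold. cd74a and csf1ra lie 370 kb apart on the chromosome of rraga, at 11.0 Mb and 10.6 Mb from it.

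**Figure D2:**
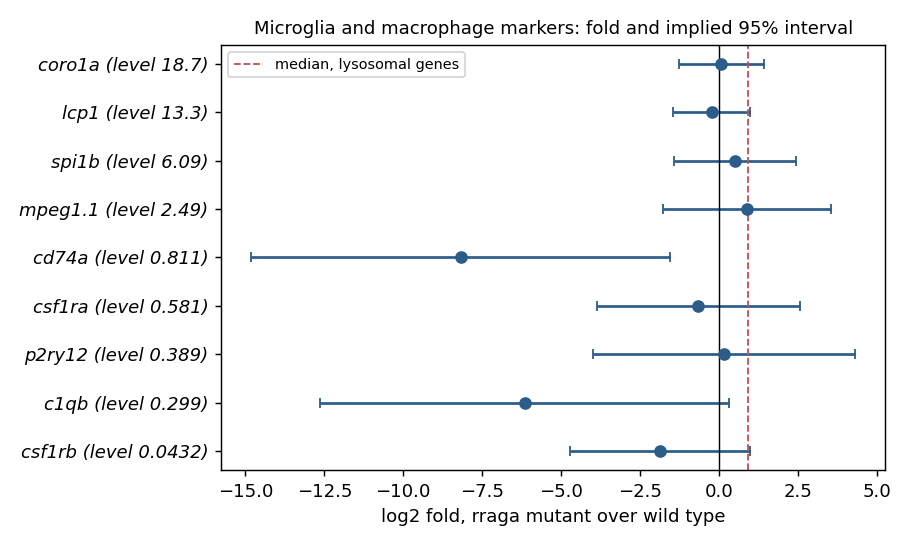
Log2 fold of rraga mutant over wild type (x axis) for the 9 markers with a p, ordered by level (y axis), with the implied 95% interval as bars and the median of the lysosomal list, 0.91, as a dashed line. coro1a and lcp1 have the narrowest intervals, and all intervals except that of cd74a include 0.

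Absolute log2 folds over 6 were common among genes with a level from 0.1 to 1, where c1qb and cd74a lie. Folds as large as that of cd74a were not counted. Of the 7473 genes with a level from 0.1 to 1, 1120 had an absolute log2 fold over 6, or 15.0%, and for 766 of them the value was lower in the mutant. None of these genes was called, and 13.9% had an unadjusted p under 0.05. Their median implied standard error was 1.95, so a gene of that precision needed a log2 fold of 7.69 to pass. Among the 5792 genes of level 10 or more the median implied standard error was 0.61 and 51 were called.

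Other genes of the same pathways were read from lists of 6 to 10 genes with a p. None of them was called, and with 0.221% of all genes called lists this short hold little information on that count. Of the 8 ligand and signalling genes of the receptor, 3 had a higher and 5 a lower value, with a median log2 fold of -0.59. The ligand genes csf1b and il34 had the highest levels of these, 4.63 and 3.99, with log2 folds of -0.26 (p = 0.837) and 1.17 (p = 0.431) per the authors' deposited table. plcg2, which encodes a phospholipase downstream of immune receptors, was the 1 gene of this group under an unadjusted p of 0.05, at -3.81 per the authors' deposited table. Of 10 myeloid transcription factor genes, 3 were higher and 7 lower, and the median was -0.10. cebpb and gata2a, named for their levels of 157 and 30.0, had log2 folds of -0.08 and -0.05 per the authors' deposited table. irf8, which microglia require, was at a level of 0.922 with a log2 fold of -1.32 (p = 0.479) per the authors' deposited table. ikzf1, the Ikaros gene of lymphoid and myeloid cells, had 4.53 with an unadjusted p of 0.00334 per the authors' deposited table. Of 7 further genes with a p on a complement list, which includes integrin genes, 2 were higher and 5 lower, and the median was -0.92. Those of highest level were c3a.1, the liver-expressed component C3, with -0.92 (p = 0.105), and c4, with -3.92 and an unadjusted p of 3.97e-04 per the authors' deposited table. The higher genes were c1s, with 4.81 at a level of 0.04, and the integrin gene itgb2, with 2.63, which is also on the pan-leukocyte list. The integrin gene matched to itgam.1 had -4.21 per the authors' deposited table. Of 6 class II presentation genes, 4 lay higher and 2 lower, the median being 1.23. ifi30, a lysosomal thiol reductase gene that is also on the lysosomal list, had 1.46 (p = 0.00463), and cd83, an activation marker of antigen-presenting cells, had 5.31 (p = 0.00107) per the authors' deposited table.

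Higher values were more frequent on a list of other macrophage genes, although the difference from the 10 markers was not tested. There, 15 of 20 had a higher value in the mutant, against 51.0% of all genes, with a median log2 fold of 1.91 and 0 called. The median was 2.35 for those of level 1 or more and 0.98 for the 5 of level 10 or more. Of the 20, 4 were higher at an unadjusted p under 0.05, where 4.43% of all genes were. They were mfap4, a gene used as a macrophage label in zebrafish, at 2.60 (level 27.7), the chemerin receptor gene cmklr1 at 5.06 (level 5.86), the scavenger receptor gene marco at 3.68 (level 2.59) and mpeg1.2, as given above, per the authors' deposited table. The gene of highest level on the list, timd4, a receptor gene for dying cells, had -0.21 at a level of 251 per the authors' deposited table. Next by level among the genes matched by name was grn1, a granulin gene, with 1.01 at a level of 31.9 per the authors' deposited table, and the gene matched to cd68, whose product is lysosomal, had 0.98 at a level of 29.8. grna, which is also on the lysosomal list, had 2.35 at a level of 2.56 per the authors' deposited table. On a list of other microglia genes, 7 of 14 were higher and 7 lower, the median being 0.06 and the mean -0.48, and 0 were called. Its members of highest level were the apolipoprotein genes apoc1 and apoeb, which are not specific to microglia, with log2 folds of -0.26 and -0.15 at levels of 1413 and 232 per the authors' deposited table. hexb, which is also a lysosomal gene, and the amino acid transporter gene slc7a7 had 1.55 (p = 0.00173) and 1.79 (p = 0.0251), and sall1b and lgals3bpb had -1.23 (p = 0.0227) and -3.96 (p = 0.0125), per the authors' deposited table.

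Markers of blood cells in general and of other cell types were read in the same way, against the same 0.221% of all genes called. Of 25 pan-leukocyte genes, 12 lay higher and 13 lower, the median being -0.07 and 0 called. The median was 0.32 for those of level 1 or more and 0.51 for the 4 of level 10 or more, so its sign depended on the genes kept. At an unadjusted p under 0.05, ptpn6 was higher, at 3.58, and plek lower, at -3.48, per the authors' deposited table. Of all genes, 4.43% were higher and 5.24% lower at that p. The pan-leukocyte genes of highest level, arpc1b and rac2 of the actin machinery, had 0.37 and 0.79 at levels of 32.5 and 16.7 per the authors' deposited table, and ptprc, which encodes the leukocyte antigen CD45, had a level of 1.17. Of 15 neutrophil genes, 11 lay higher, the median was 0.49 and 0 were called. lyz, the lysozyme gene of neutrophils and macrophages, had 3.38 at a level of 142 with an adjusted p of 0.0721 per the authors' deposited table, while mpx and npsn, which are specific to neutrophils, had 0.49 and -0.18 at levels of 2.82 and 10.1. cpa5 and lect2l had the highest levels of the list, 1527 and 149, with log2 folds of -0.51 and 0.25 per the authors' deposited table. cpa5 is a gene of the pancreas and is not specific to neutrophils, so its level does not measure neutrophil RNA. Of 18 lymphocyte genes, 6 were listed at 0, among them rag1 and cd79a, and lck was at 0.0106. Of the other 12, 4 lay higher and 8 lower, the median being -0.49 and 0 called, and those of highest level, tox and cd3eap, had -0.54 and 0.24 per the authors' deposited table. cd3eap, listed for its name, encodes a subunit of RNA polymerase I and does not mark lymphocytes, and tox is expressed outside them as well. Of 17 endothelial genes, 10 lay higher, the median being 0.37 and the mean -0.05, and 0 were called. cldn5b and aqp1a.1 had the highest levels, 24.7 and 20.1, with -2.93 and 1.40 per the authors' deposited table. The vessel markers fli1a, kdrl, tie1 and cdh5 had levels of 2.73, 0.909, 0.375 and 0.283. Their log2 folds were 0.37, 0.57, 1.09 and -2.78 per the authors' deposited table.

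**Figure D3:**
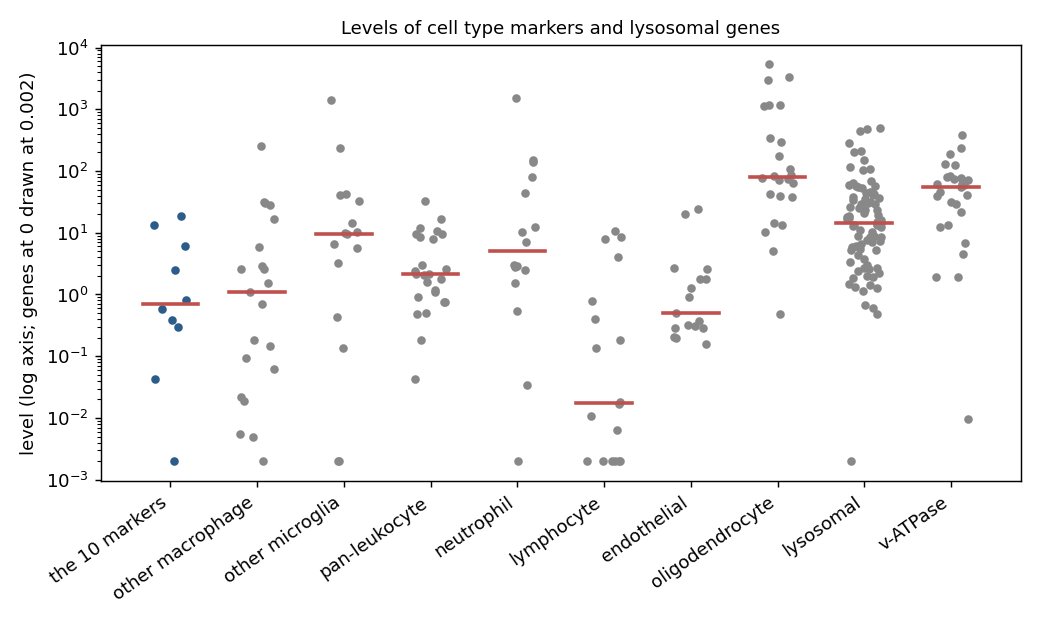
Level on a log axis (y axis) of each gene of the 10 markers (blue) and of 9 other lists (grey), with genes listed at 0 drawn at 0.002 and the median of each list as a red line. The markers' median of 0.696 lies near that of the endothelial list, 0.498, and below those of the oligodendrocyte list, 80.1, and the lysosomal list, 14.5.

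Of 27 listed names for the labelled cell type, 24 were found and 3 were not. None of the genes found was listed at 0, and olig1 was the lowest at 0.490. mbpa, mpz and cldnk had levels of 5321, 1110 and 1184 per the authors' deposited table, and the lineage factors olig2 and sox10 had 177 and 74.6. The 24 oligodendrocyte genes held 2.65% of the summed level, against 0.00678% for the 10 markers. The list of other macrophage genes held 0.0596%, with timd4 at 251 of a summed 375. The list of other microglia genes held 0.289%, with apoc1 at 1413 of a summed 1821. The share of the summed level thus depends on the genes listed, and none of these shares measures the share of macrophage RNA. Of the oligodendrocyte genes 8 had a higher and 16 a lower value, with a median of -0.70, and 2 were called, against 0.221% of all genes. Of the 5792 genes of level 10 or more, where 22 of the 24 lie, 51 were called. At an unadjusted p under 0.05, 2 of the 24 were higher and 6 lower, where 4.43% of all genes were higher and 5.24% lower. cldnk itself had -0.82 (p = 0.127) per the authors' deposited table. mpz, which encodes myelin protein zero, fell with a log2 fold of -2.96 and hapln2, a link protein gene of the nodal matrix, rose with 3.17 per the authors' deposited table.

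The lysosomal genes had higher medians than the markers in level and in log2 fold, a difference that was not tested. Of the 85 lysosomal hydrolase and membrane protein genes with a p, 72 had a higher value in the mutant, with a median log2 fold of 0.91, and 2 were called. Of all genes with a p 0.221% were called, and of the 5792 of level 10 or more, 51 were. Of all genes with a p 51.0% had a higher value, and of those of level 10 or more, where 52 of the lysosomal and 22 of the v-ATPase genes lie, 62.3% did. The called genes were those of the cathepsins, ctsk, with 2.51 and an adjusted p of 0.0227, and ctsa, with 2.29 and an adjusted p of 0.0331, both of which rose per the authors' deposited table. At an unadjusted p under 0.05, 23 of the lysosomal genes were higher and 1 lower, where 4.43% of all genes were higher and 5.24% lower. Of 27 v-ATPase genes, which encode the proton pump of the lysosome, 25 lay higher, the median was 1.17 and 0 were called. atp6v1g1 and atp6v1e1b had the highest levels, 388 and 237, with 0.85 and 1.17 per the authors' deposited table. The lysosomal list held 0.633% and the v-ATPase list 0.307% of the summed level. The folds of coro1a and lcp1, at 0.08 and -0.22, lay below both medians, which carry no error of their own. The interval of coro1a includes 0.91 and 1.17, and that of lcp1 includes 0.91 and not 1.17. On the list of other macrophage genes the median of 1.91 lay above both, with 15 genes higher and 5 lower. At level 10 or more it was 0.98 over 5 genes, against 0.93 for the lysosomal and 1.17 for the v-ATPase genes of that level. That 0.98 is the fold of the gene matched to cd68, whose product is lysosomal, so it is not a value apart from lysosomal genes. Of the 21 macrophage genes found, 10 had a level under 1, and grna is also on the lysosomal list. On the macrophage list mfap4, at a level of 27.7, had 2.60 with an implied interval from 0.96 to 4.24. timd4, at a level of 251, had -0.21, both folds per the authors' deposited table. The part of macrophage RNA in the lysosomal values was not tested.

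**Figure D4:**
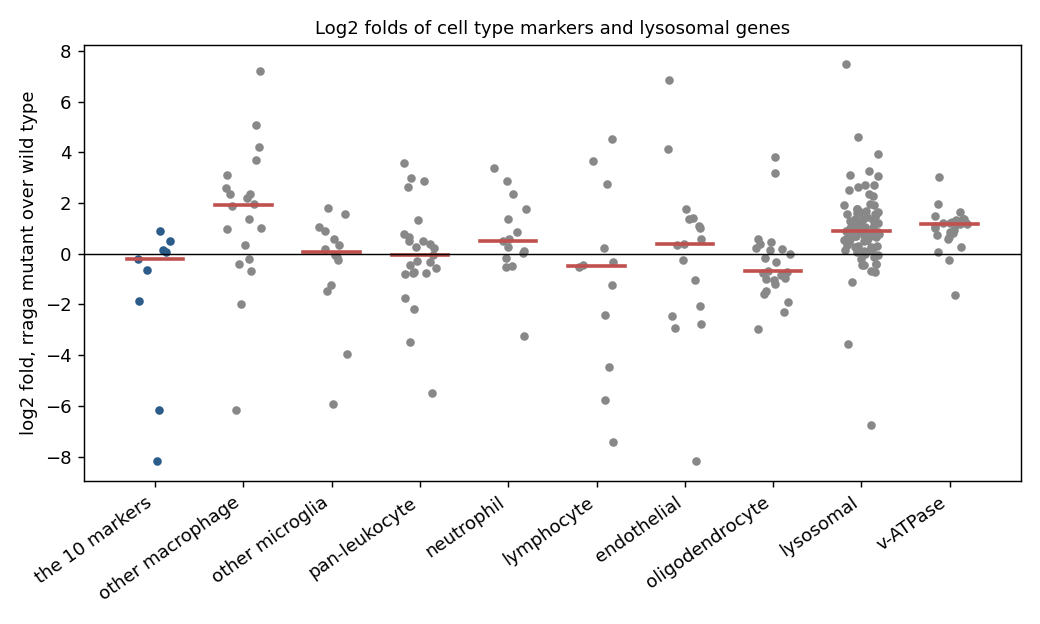
Log2 fold of rraga mutant over wild type (y axis) of each gene with a p among the 10 markers (blue) and in 9 other lists (grey), with the median of each list as a red line. The median of the markers is -0.22, that of the other macrophage genes 1.91, that of the lysosomal genes 0.91 and that of the v-ATPase genes 1.17.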

How the data were processed

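The data were 1 table in which the authors compared mutant with control cells, and its title sets which way each fold points. Per the file headers, the level was deposited as the maximum group mean, a normalized expression signal without a named unit, together with the log2 and signed fold and the raw, FDR and Bonferroni p-values. Reads were placed on GRCz11, per the submitters' processing notes, while no source used here names the aligner, the counting, the normalization or the test. The 8569 genes of level 0 have no fold or p. The table holds no counts, so no count model was run, no sample's depth is known and counting intervals could not be computed.

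Genes with an FDR p-value under 0.05 by the authors were called changed. For genes under that threshold it equalled the Benjamini-Hochberg adjustment over the whole table, with a missing p taken as 1, to within 9.89e-17. The implied standard error is the size of the log2 fold over the two-sided normal deviate that its p corresponds to. Its code was run on simulated p-values made with the same normal formula. That run checks the arithmetic only and cannot show whether the authors' test was normal. The fold needed for a call is that error times 3.95, the deviate of the largest p among called genes.

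The members and the 13 other lists were chosen with earlier results of these data known. Of 318 listed names 26 were not found, and the 286 distinct genes were matched by name (270), Ensembl identifier (14) or name in another case (2). The text names all 10 markers and, per list, up to 4 called genes or, where none was called, the 2 of highest level. Other genes, such as those at an unadjusted p under 0.05, were named after their values were seen. Values were computed with Python 3.11.15, pandas 2.3.3, numpy 2.4.6 and scipy 1.17.1, and plotted with matplotlib 3.10.9.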

Additional observations from a re-analysis of the deposited data

How the results depend on the processing

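The count of called markers was 0 under each of the 6 other rules tried, which change only the adjustment, the threshold or the smallest fold. These were the authors' FDR p under 0.01, their Bonferroni p, adjustment over genes with a p only, over the genes with a level of at least 1 (4 markers) or at least 10 (2 markers), and an absolute log2 fold of at least 1. The FDR p under 0.01, the Bonferroni p and the smallest fold are stricter than the main rule, so they could not add a call. The level rules kept few markers, so the repeated count of 0 says little about the others. The markers' median log2 fold of -0.22 was 0.30 for those of level 1 or more and -0.072 for those of level 10 or more, and their mean was -1.71; its sign thus depends on the markers kept. Over all genes, 57 calls became 20 at the authors' FDR p under 0.01, 14 by Bonferroni, 90 when adjusted from level 1 upward and 113 from level 10 upward. The lysosomal calls, 2, became 0 at FDR p under 0.01, 0 by Bonferroni and 3 from level 10 upward. The oligodendrocyte calls, 2, became 1 under either of these and 4 from level 10 upward. The neutrophil list, with 0, had 1 call, lyz, adjusted from level 1 upward and 1 from level 10 upward. The other 11 of the 14 lists, the markers among them, had 0 calls throughout. Leaving out a replicate was not run, since the table holds no values per replicate. No paired analysis was possible because the table carries no replicate columns. Depth is unknown, and 6 of the 10 markers lie under level 1, where no gene of the table was called. mpeg1.1, at 2.49, also lay below 3.40, the lowest level of a called gene.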

Other observations

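Among weakly expressed genes many held exactly the same fold and p. A log2 fold of -2.43 with p = 0.435 was shared by 336 genes of level 0.296 or less per the authors' deposited table, among them runx1, ciita and zap70, and a log2 fold of 1.94 with p = 0.546 was shared by 155 genes, among them mpeg1.3. None of the 9 markers with a p belonged to such a group.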
